A study of Mus musculus with 2 samples.

Results

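The 8 genes described here encode cytokines that steer T cells toward a helper fate or keep leukocytes alive: Il12b, Il6, Tnf, Il10, Il15, Csf1, Tnfsf13 and Tnfsf13b. They were chosen by symbol from the 32285 genes counted, each symbol named 1 row, and all 8 had at least 1 UMI (a counted mRNA molecule) in the 12739 cells kept. The cells were live CD45.2+ YFP+ lung cells of zbtb46-cre x rosa26-yfp mice at 7 days of age (neonatal) and at 8 weeks of age (adult), and the labels name no treatment. The Zbtb46 locus is active in classical dendritic cells (DC) and their precursors, and Cre made under its control switches YFP on permanently, so that a YFP+ cell expressed Zbtb46 itself or descends from a cell that did. Mice of both ages carried both alleles, and cells without YFP are not in the data. Each age had 2 pools made from at least 5 mice each. Mice cannot be told apart within a pool, so n = 2 pools per age throughout. Cells were grouped by expression and are called "-like" because only marker genes name them. The question a comparison addresses is how the level of a cytokine's mRNA differed between neonatal and adult cells of 1 class. Levels are in CPM, a gene's UMIs relative to the total of its class in the pool. Fold changes are neonatal over adult, ± after a log2 fold change is its standard error, and ± after a level is the SD of 2 pools.

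The label calls the cells dendritic, and 3381 of 8854 neonatal cells (38.2%) and 1057 of 3885 adult cells (27.2%) fell in a DC class. The others were mostly monocyte-like, neutrophil-like, NK-like and further leukocytes. Endothelial-like cells, which are not leukocytes, numbered 24 and 38 in neonatal and 4 and 4 in adult pools. The pools held 20346024 and 19549992 gene UMIs at the neonatal age and 8993471 and 8172362 at the adult age, and median depth per cell ran from 3052 to 3714.5 UMIs. The ages differed in sex: Ddx3y, a Y-linked gene, had 0.525 and 11.8 CPM in neonatal pools against 69.7 and 76.6 CPM in adult pools. The pools of an age were also loaded together in 1 channel, so age cannot be told apart from sex or from loading. No barcode was shared within an age and 14 were shared between ages. In cDC1-like, mature DC-like, monocyte-like and neutrophil-like cells the ages also filled different clusters, so results in these classes are followed, for most genes named, by values within a cluster.

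Cytokines of this kind are the third signal a DC gives to a T cell, beside peptide on MHC and costimulation. The product of Il12b is the p40 chain of IL12, which drives interferon-gamma-making helper T cells, and of IL23, which sustains IL17-making ones. IL6 favours IL17-making and follicular helper T cells, TNF promotes DC maturation, and IL10 restrains the others. IL15 is shown to NK and memory T cells on the surface of the cell that makes it, CSF1 feeds monocytes and macrophages, and APRIL (Tnfsf13) and BAFF (Tnfsf13b) feed B and plasma cells. Several of these genes are classical targets of NF-kB, a family of transcription factors switched on by microbial and inflammatory signals.

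The stretch before the start site is shown for Il12b, Il6 and Csf1, whose mRNAs were each concentrated in 1 or a few classes. Capitals mark matches, on either strand, to the letters GGG, then any 2 bases, then TTTCC, a form of the NF-kB site. Il6 held GGGATTTTCC at 44 to 35 bases before the start, and Csf1 held GGAAAGTCCC at 154 to 145 bases before it, as the reverse complement. The Il12b window held no match to these letters, and neither did the windows of Tnf, Tnfsf13 and Tnfsf13b, which are not shown. Other forms of the NF-kB site are not marked, so a window without capitals may still hold one. The marked motif was found in 464 of 32851 mouse promoter windows of 250 bases (1.41%). A match describes these letters only, and the motif was chosen after the windows had been read. Sequences are from RefSeq (GRCm38.p6), 5′ to 3′ on the strand of the gene, and a promoter entry was matched for 6 of the 8 genes.
Il12b promoter, chr11:44399813-44400062, + strand: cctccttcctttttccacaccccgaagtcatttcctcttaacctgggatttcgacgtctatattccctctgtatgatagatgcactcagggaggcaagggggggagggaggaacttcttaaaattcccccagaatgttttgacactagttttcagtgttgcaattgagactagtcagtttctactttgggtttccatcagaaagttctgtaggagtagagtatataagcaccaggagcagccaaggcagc
Il6 promoter, chr5:30012864-30013113, + strand: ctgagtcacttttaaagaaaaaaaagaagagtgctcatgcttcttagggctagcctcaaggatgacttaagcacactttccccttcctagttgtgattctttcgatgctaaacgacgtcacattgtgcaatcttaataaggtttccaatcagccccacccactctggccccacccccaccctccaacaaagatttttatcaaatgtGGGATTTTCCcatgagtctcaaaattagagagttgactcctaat
Csf1 promoter, chr3:107760470-107760719, − strand: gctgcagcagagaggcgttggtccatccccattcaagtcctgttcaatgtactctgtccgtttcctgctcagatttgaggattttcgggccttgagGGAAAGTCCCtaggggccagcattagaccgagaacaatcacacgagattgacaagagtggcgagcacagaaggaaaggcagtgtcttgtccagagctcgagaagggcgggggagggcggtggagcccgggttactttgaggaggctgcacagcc

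Across 9 classes with at least 20 cells in every pool, 29 of the 72 pairs of a gene and a class had enough UMIs to be tested between ages. Of these, 3 were higher and 10 were lower in neonatal than in adult cells at an adjusted p under 0.05 (edgeR's quasi-likelihood test with Benjamini-Hochberg adjustment over all genes tested in the class). In cDC1-like cells 3 of 5 tested genes were lower and 0 higher in neonates, where 15% of all tested genes were lower and 12% higher. In mature DC-like cells 2 of 5 were higher and 1 was lower, against 14.5% of all genes higher and 15.6% lower. In classical monocyte-like cells 3 of 4 were lower and 0 higher, against 11% of all genes lower and 7.29% higher. In cDC2-like cells 1 of 4 was lower and 0 higher (10.2% of all genes lower, 7.15% higher), and in nonclassical monocyte-like cells likewise 1 of 4 was lower and 0 higher (9.92% lower, 9.93% higher). In neutrophil-like cells 1 of 4 was higher and 0 lower (16.3% of all genes higher, 15.8% lower), and in NK-like cells the 1 gene tested was lower (5.3% of all genes lower, 5.56% higher). Both tested genes in basophil-like cells missed the threshold (2.96% of all genes higher, 3.65% lower), and no member could be tested in T cell-like cells (0.884% higher, 2.35% lower). With at most 5 members tested in a class, a share of members is coarse beside the share over all genes. Tnfsf13 was called in 5 classes, each time lower in neonates, and Tnf in 3.

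**Figure D1:**
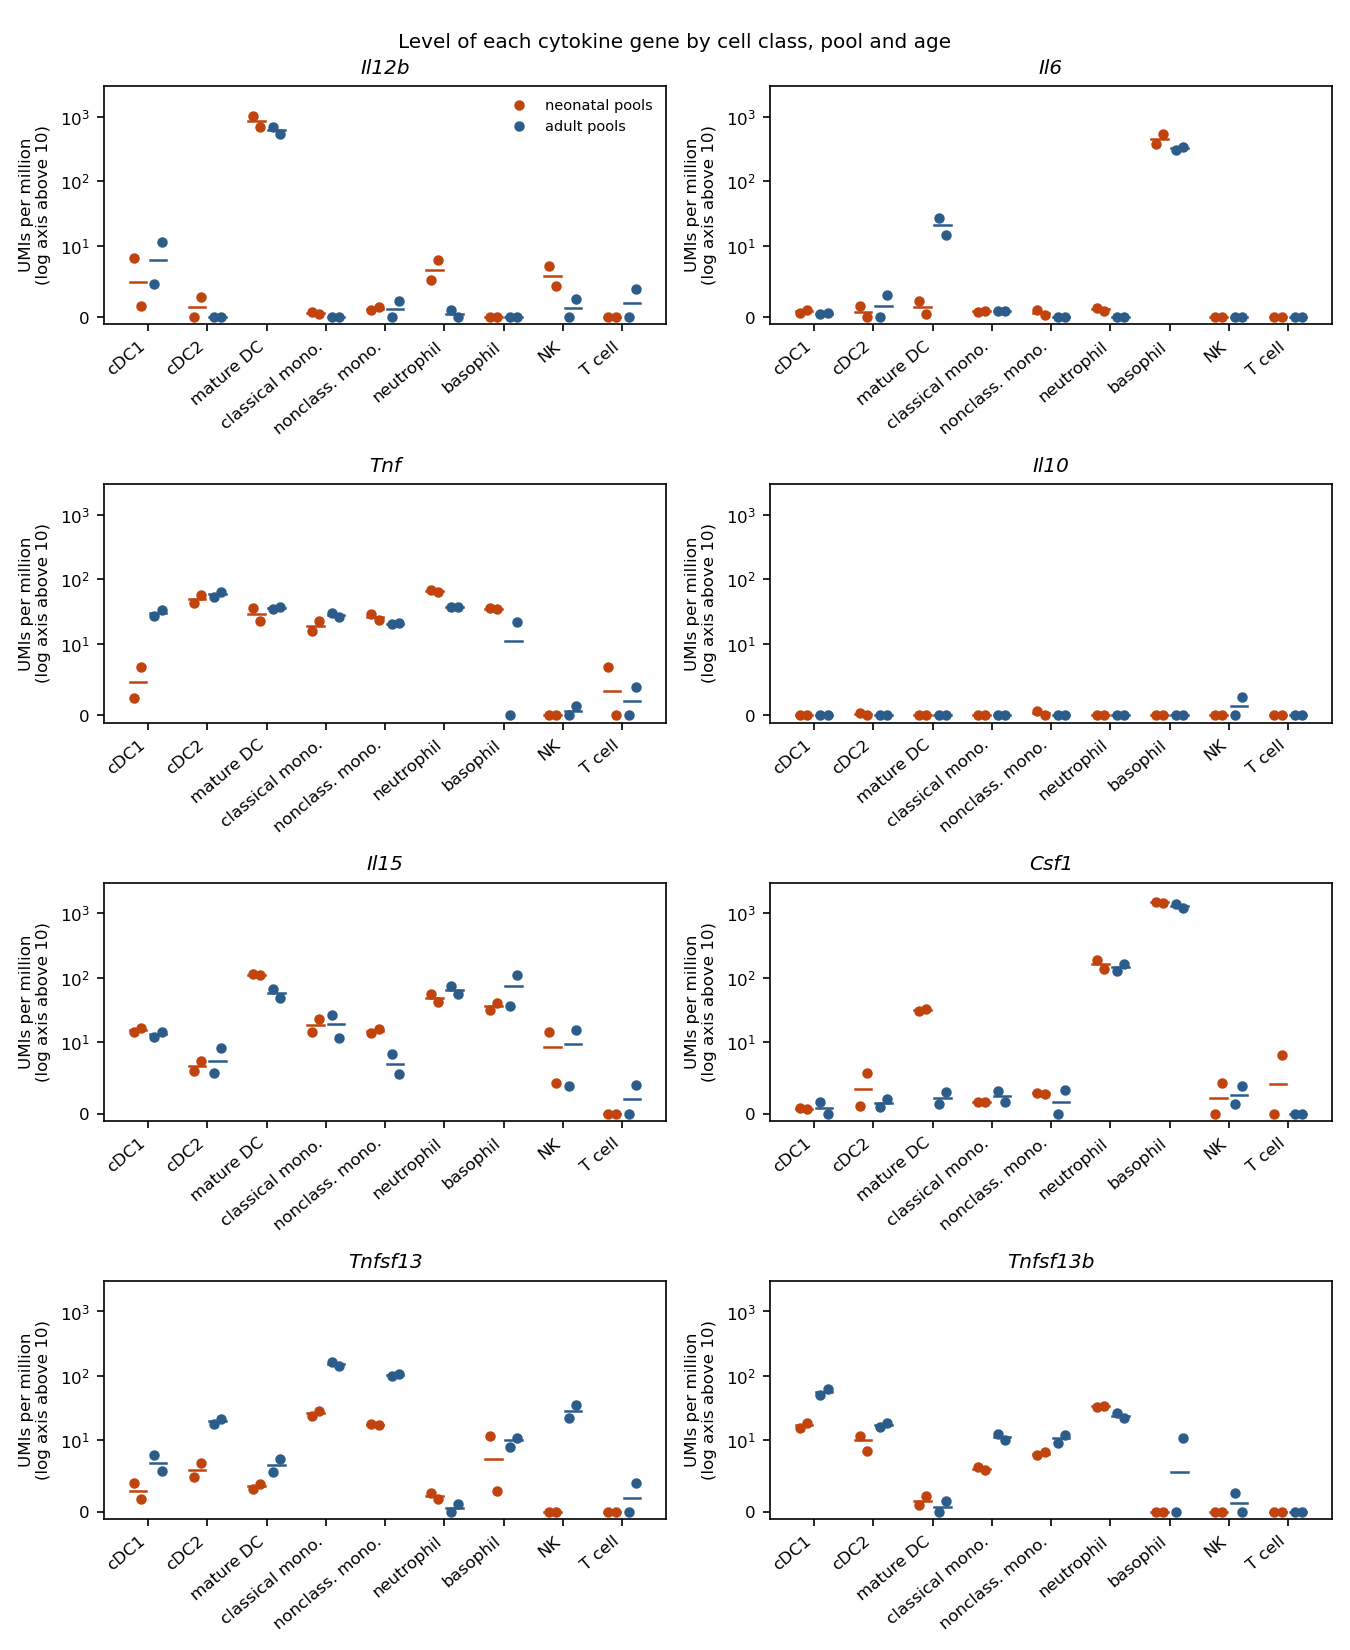
Levels of the 8 genes in 9 classes, in CPM on an axis that is logarithmic above 10 and linear below it. Each point is 1 pool and each bar the mean of 2 pools, with the neonatal pools left of the adult pools in each class. Il12b stands in mature DC-like cells and Il6 and Csf1 in basophil-like cells, and both adult pools lie above both neonatal pools for Tnfsf13 in both monocyte-like classes.

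Il12b (chr11:44400063-44414033, + strand, GRCm38) was almost wholly an mRNA of mature DC-like cells, the Ccr7+ cells that carry antigen to lymph nodes. Neonatal mature DC-like cells held 2239 and 1594 Il12b UMIs (1017 and 699 CPM), against 502 and 370 UMIs (701 and 547 CPM) in adult ones. These were 97.6% and 98.0% of all Il12b UMIs in the neonatal pools and 97.7% and 93.7% in the adult pools. The level in every pool lay far above that of the next class, neutrophil-like cells, at 6.59 ± 1.91 CPM in neonates. The ages overlapped, since adult pool 1 lay above neonatal pool 2. The fitted difference was 0.35 ± 0.19 on the log2 scale, with an adjusted p of 0.229. Without neonatal pool 2 it was 0.61 and passed the threshold (adjusted p 5.7e-04).

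Cells carried Il12b very unequally. The 10% of mature DC-like cells with the most UMIs held 56.7% and 58.8% of the class's Il12b UMIs in neonatal pools against 69.9% and 74.3% in adult pools. The highest single cell had 55 and 59 UMIs in neonatal pools against 97 and 134 in adult pools. With every cell thinned to 1500 UMIs, 42.3% and 37.4% of neonatal mature DC-like cells had an Il12b UMI, against 29.5% and 24.8% of adult ones. Both neonatal shares lay above both adult shares, an exact permutation p of 0.33 (two-sided), the smallest that 2 pools against 2 can give. As background, 1 of 195 T cell-like cells, which do not make IL12, had an Il12b UMI, at a median of 3968 UMIs per cell. The largest part of the Il12b level in mature DC-like cells that free RNA could supply was 0.25%.

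The mature DC-like class was made of 2 clusters, which the ages filled unequally. Cluster 5 held 417 and 392 neonatal cells but 9 and 9 adult cells, and had 1186 and 841 CPM in neonatal pools and 1216 and 673 CPM in adult pools. Cluster 10 held 105 and 129 neonatal and 104 and 94 adult cells, and had 469 and 362 CPM in neonatal pools against 652 and 537 CPM in adult pools. Within cluster 10 Il12b was lower in neonates, by −0.54 ± 0.14 on the log2 scale (adjusted p 0.016, where 6.28% of genes were called), the opposite direction to the whole class.

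**Figure D2:**
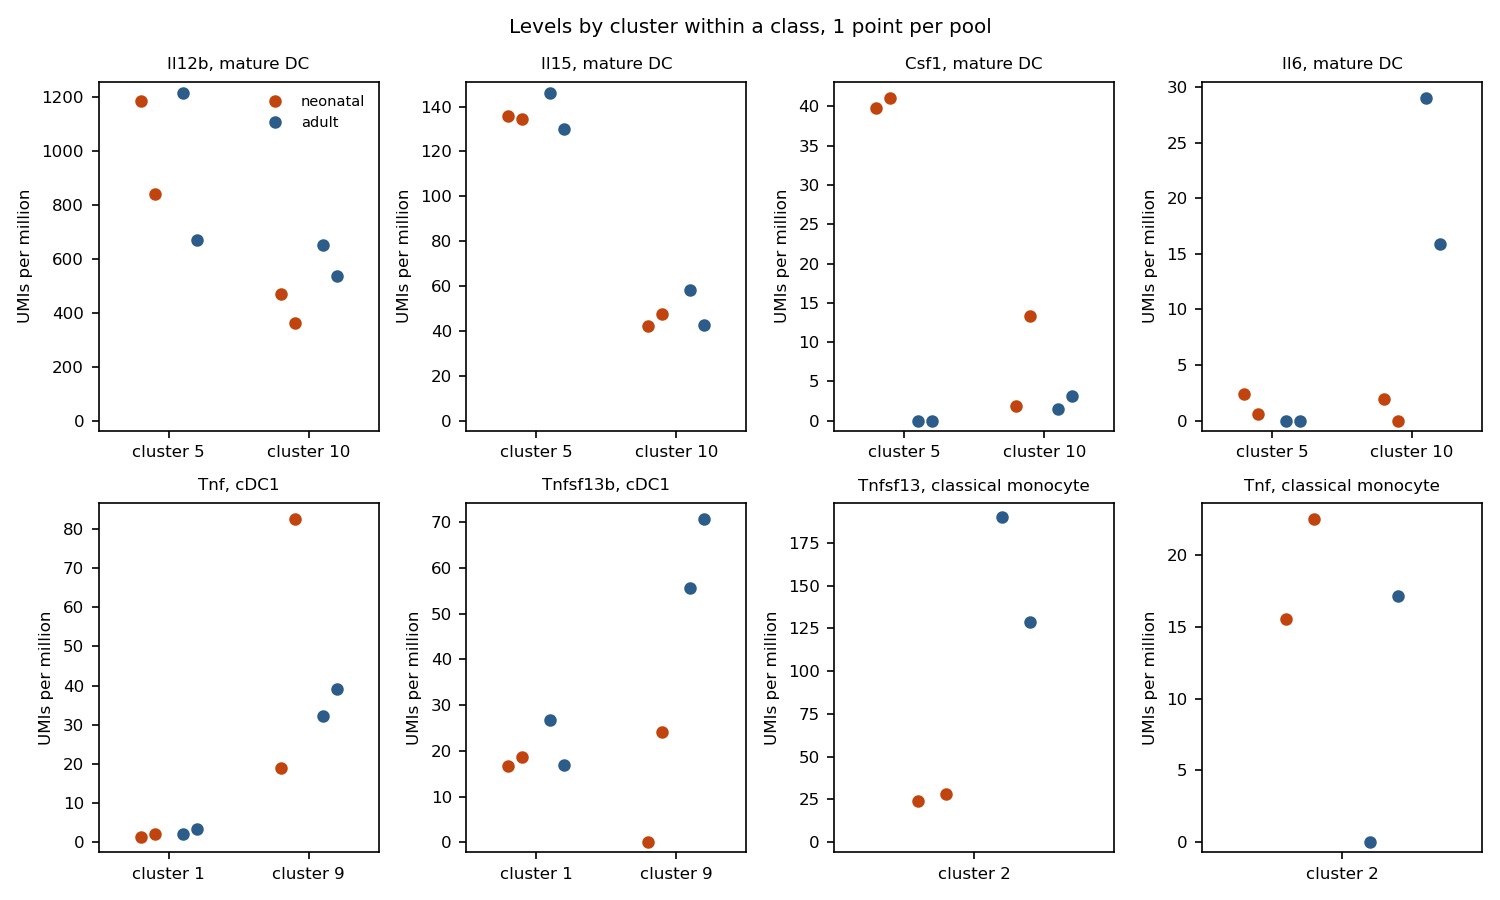
Levels in CPM within clusters of mature DC-like, cDC1-like and classical monocyte-like cells, 1 point per pool, with neonatal pools left of adult pools. Il12b and Il15 were higher in mature DC-like cluster 5 than in cluster 10 in every pool, while Csf1 in cluster 5 was seen in neonatal pools alone, with 0 adult UMIs.

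In cDC1-like cells, the cross-presenting DC, Il12b had 43 and 8 UMIs in neonatal pools and 11 and 20 UMIs in adult pools. Free RNA could supply at most 19.2% and 50.6% of this level in neonatal pools, and 7.54% and 6.06% in adult pools. A single neonatal cell held 38 of the 51 neonatal UMIs (74.5%), and a single adult cell held 17 of the 31 adult UMIs (54.8%). The difference was −0.64 ± 1.08 on the log2 scale (adjusted p 0.752). Without neonatal pool 1, which holds the high neonatal cell, it was −2.25 with an adjusted p of 0.0023.

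The chains that pair with p40 were scarce. Il12a, the p35 chain that completes IL12, had 2 UMIs in all neonatal cells and 4 in all adult cells. Il23a, the p19 chain of IL23, had 30 UMIs in neonatal cells and 31 in adult cells. In mature DC-like cells Il12a had 1 neonatal and 0 adult UMIs, and Il23a had 0 neonatal and 2 adult UMIs. Neutrophil-like cells held 12 and 5 Il23a UMIs in neonatal pools and 6 and 18 in adult pools. Ebi3 and Il27, the chains of IL27, were better represented. Ebi3 had 80.4 and 67.1 CPM in neonatal mature DC-like cells against 33.5 and 23.6 CPM in adult ones, a log2 difference of 1.25 ± 0.23 (adjusted p 2.0e-04). Within cluster 10 it had 59.6 and 39.9 CPM in neonatal pools and 35.1 and 23.8 CPM in adult pools, and the difference of 0.71 ± 0.33 missed the threshold (adjusted p 0.239). Ebi3 was also higher in neonatal cDC2-like, classical monocyte-like, neutrophil-like and nonclassical monocyte-like cells, by 0.57 to 0.98 on the log2 scale, and by 0.38 ± 0.48 within classical monocyte-like cluster 2, where it missed the threshold (adjusted p 0.834). Il27 had 33 and 17 UMIs in neonatal mature DC-like cells against 1 and 0 UMIs in adult ones (adjusted p 0.0047). Of these, 32 and 17 neonatal UMIs and 0 adult UMIs were in cluster 5, which held only 9 cells in each adult pool, and cluster 10 had 1 and 0 UMIs in neonatal pools and 1 and 0 in adult pools.

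Il6 (chr5:30013114-30019981, + strand) was foremost an mRNA of basophil-like cells, granulocytes related to mast cells, with 25 to 113 cells in a pool. Neonatal basophil-like cells held 95 and 184 Il6 UMIs (375 and 538 CPM), against 34 and 31 UMIs (309 and 342 CPM) in adult ones. A single cell held 52 of the 184 UMIs of neonatal pool 2, and the highest cell had 14 in neonatal pool 1 and 4 and 11 in adult pools. Both neonatal pools lay above both adult pools, but the difference of 0.47 ± 0.22 on the log2 scale missed the threshold (adjusted p 0.262). Basophil-like cells supplied 83.3% and 93.4% of all Il6 UMIs in neonatal pools against 61.8% and 67.4% in adult pools. With cells thinned to 1500 UMIs, 25.9% and 39.6% of neonatal and 29.4% and 40% of adult basophil-like cells had an Il6 UMI. These shares overlapped between ages. 0 of 195 T cell-like cells had one, which allows a share of up to 1.54%.

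Mature DC-like cells were the second source of Il6 in adult pools, with 34.5% and 21.7% of all Il6 UMIs, against 4.39% and 0.508% in neonatal pools, where cDC1-like cells supplied 2.63% and 2.54%. Neonatal mature DC-like cells held 5 and 1 Il6 UMIs (2.27 and 0.438 CPM), against 19 and 10 UMIs (26.5 and 14.8 CPM) in adult ones. Il6 was lower in neonates by −3.98 ± 0.59 on the log2 scale (adjusted p 1.2e-05). The adult UMIs came from 13 cells, all in cluster 10, with at most 6 UMIs in a cell. All 13 had a Ccr7 UMI, 7 had an Il12b UMI and 0 had an Mcpt8 or Gata2 UMI, the markers of basophils and mast cells. Thinned to 1500 UMIs, 2 Il6+ cells were left in each adult pool, too few to set their Il12b beside that of other cells. All 6 genes of the basophil and mast cell list together had 3.18 and 4.38 CPM in neonatal and 0 and 1.48 CPM in adult mature DC-like cells, with 3, 2, 6 and 5 of them at 0. Within cluster 10 the difference was −4.46 ± 0.90 (adjusted p 0.0019). Beside it, 7 of 11 immediate-early and stress genes (Fos, Jun, Egr1 and others that tissue dissociation can raise) were lower and 2 higher in neonatal mature DC-like cells, with 5 of 10 lower and 0 higher within cluster 10, and their part in the result was not tested. That list was chosen after its values had been seen. Of all genes tested in the class 15.6% were lower and 14.5% higher, and 6.28% were called in cluster 10.

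Tnf (chr17:35199381-35202007, − strand) was spread over DC, monocyte and neutrophil classes. In neonates the highest level among the tested classes was in neutrophil-like cells, at 66.2 ± 2.56 CPM, followed by cDC2-like cells at 50.2 ± 10.4 CPM. In adults cDC2-like cells came first, at 58.3 ± 7.02 CPM, followed by neutrophil-like cells at 37.1 ± 0.447 CPM. Alveolar macrophage-like cells, present in neonatal pools only, had 89.4 and 95.03 CPM.

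Among the 6 classes tested, the age difference in Tnf was largest in cDC1-like cells. Neonatal cDC1-like cells held 13 and 34 Tnf UMIs (2.49 and 6.83 CPM), against 64 and 58 UMIs (26.6 and 33.1 CPM) in adult ones. Both neonatal pools lay below both adult pools, and the log2 difference was −2.72 ± 0.28 (adjusted p 1.4e-08). With cells thinned to 1500 UMIs, 0.13% and 0.55% of neonatal against 3.55% and 4.95% of adult cDC1-like cells had a Tnf UMI. Those cells also differed in the clusters they filled. Cluster 1 held 739 and 687 neonatal and 59 and 42 adult cells, and had 1.43 and 2.13 CPM in neonatal pools and 2.23 and 3.36 CPM in adult pools. Cluster 9, with Epcam, Plet1 and Cldn1 among its leading genes, held 46 and 41 neonatal and 256 and 188 adult cells, and had 18.8 and 82.5 CPM in neonatal pools and 32.2 and 39.1 CPM in adult pools. Within cluster 9 the Tnf difference was 0.44 ± 0.41 (adjusted p 0.604, 8.73% of genes called). The 11 early genes moved the same way in the class, 7 lower and 0 higher in neonates (15% of all genes lower, 12% higher). Their summed level was 4198 and 3840 CPM in neonatal pools and 5281 and 6240 CPM in adult pools. Within cluster 9, 4 of 11 were lower and 1 higher. Their part in the Tnf result was not tested.

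In the other classes Tnf went in both directions. Neutrophil-like cells had 68.0 and 64.4 CPM in neonatal pools against 37.4 and 36.8 CPM in adult pools, a difference of 0.87 ± 0.22 (adjusted p 0.0016). The Tnf call was lost with DESeq2 (adjusted p 0.097). All 9 early genes tested in neutrophil-like cells were lower in neonates, where 15.8% of all genes were lower. The part of early genes in Tnf was not tested in any class. All but 8 neonatal neutrophil-like cells lay in clusters 6 and 13 and every adult one in cluster 3, so age and cluster cannot be told apart there. Cluster 6 had 81.5 and 89.0 CPM and cluster 13 had 42.4 and 29.5 CPM of Tnf in neonatal pools, and cluster 3 had 37.4 and 36.8 CPM in adult pools. Classical monocyte-like cells had 15.7 and 22.4 CPM in neonatal pools against 29.97 and 25.98 CPM in adult pools, a difference of −0.75 ± 0.24 (adjusted p 0.018). All 11 early genes were lower there too, and the Tnf call was lost in 4 of 15 alternatives, among them without neonatal pool 1 (−0.51, adjusted p 0.249) and without adult pool 1 (−0.64, adjusted p 0.198). Within cluster 2 the sign was reversed (1.07 ± 1.02, adjusted p 0.772). Of all genes tested in classical monocyte-like cells, 11% were lower in neonates. cDC2-like cells had 42.9 and 57.6 CPM in neonatal pools and 53.3 and 63.3 CPM in adult pools, and missed the threshold (−0.40 ± 0.19, adjusted p 0.143). Mature DC-like cells (−0.40 ± 0.28, adjusted p 0.294) and nonclassical monocyte-like cells (0.20 ± 0.27, adjusted p 0.683) also missed it.

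Il10 (chr1:131019845-131024974, + strand) was close to absent from these counts. It had 3 UMIs in neonatal cells and 2 in adult cells, in 3 cells in all. The 2 adult UMIs were in NK-like cells, and the neonatal ones in cDC2-like and nonclassical monocyte-like cells. No age difference in Il10 was detectable at this depth.

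**Figure D3:**
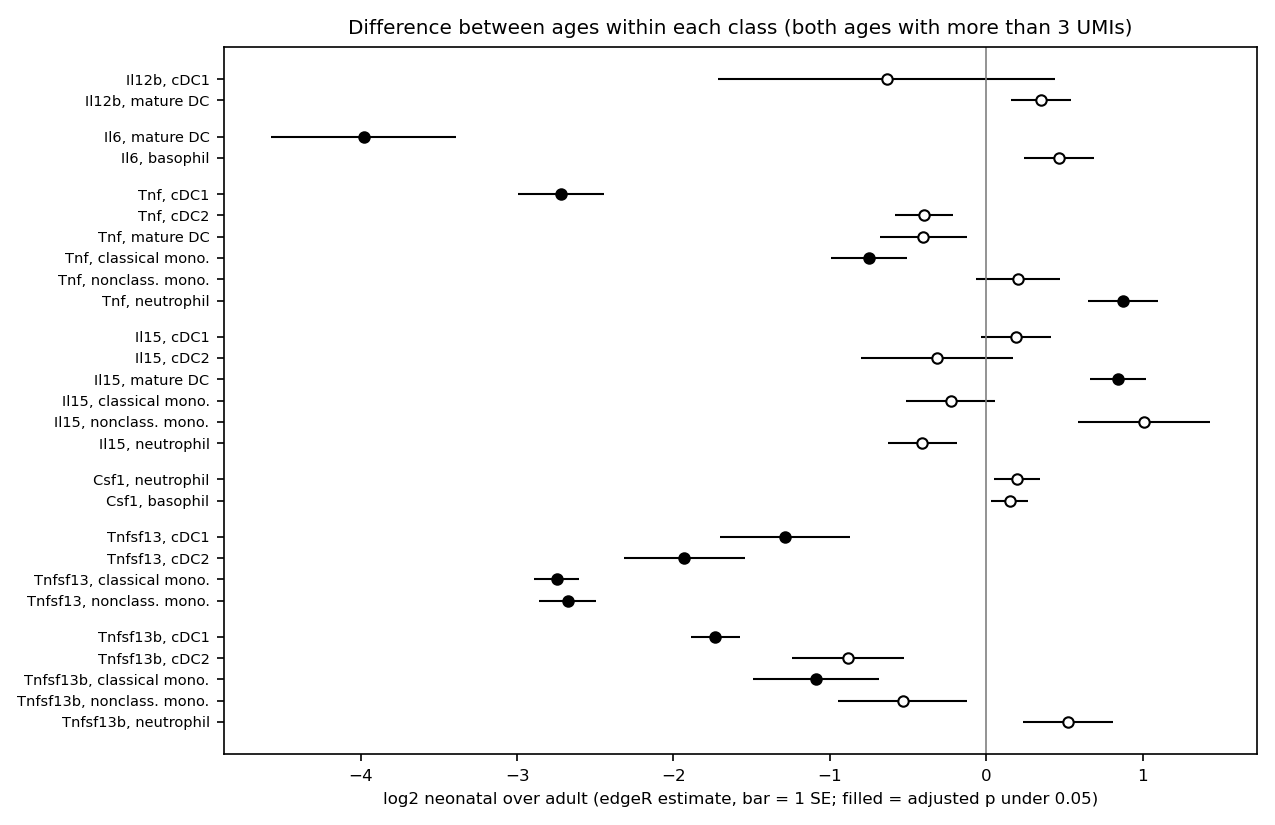
Log2 fold change, neonatal over adult, with 1 standard error for the gene and class pairs that had more than 3 UMIs at both ages. Filled points passed an adjusted p of 0.05. Tnfsf13 lies left of 0, lower in neonates, in all 4 classes drawn, from −1.29 in cDC1-like to −2.75 in classical monocyte-like cells.

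Il15 (chr8:82331632-82403222, − strand) was highest in neonatal mature DC-like cells. These held 250 and 248 Il15 UMIs (114 and 109 CPM), against 47 and 33 UMIs (65.6 and 48.7 CPM) in adult mature DC-like cells. Both neonatal pools lay above both adult pools, a difference of 0.84 ± 0.18 on the log2 scale (adjusted p 6.9e-04). Mature DC-like cells supplied 50.7% and 46.3% of all Il15 UMIs in neonatal pools against 22.9% and 20.8% in adult pools. Neutrophil-like cells supplied 8.72% and 8.77% in neonatal pools against 36.1% and 30.2% in adult pools. The ages overlapped within each cluster. Cluster 5 had 136 and 135 CPM in neonatal pools and 146 and 130 CPM in adult pools, and cluster 10 had 42.3 and 47.3 CPM in neonatal pools and 58.1 and 42.8 CPM in adult pools. Within cluster 10 the difference was −0.17 ± 0.29 (adjusted p 0.831), so the call of the class was not seen in the cluster that both ages filled.

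Il15ra, the chain that holds IL15 on the surface of the presenting cell, moved with it. Neonatal mature DC-like cells had 284 and 261 CPM of Il15ra against 112 and 82.7 CPM in adult ones, a difference of 1.37 ± 0.14 (adjusted p 7.9e-08). Cluster 10 again gave a difference that missed the threshold (−0.34 ± 0.24, adjusted p 0.514). Irf1, a transcription factor known to induce Il15, was higher in neonatal mature DC-like cells by 2.17 ± 0.12 (adjusted p 2.2e-12), and Irf8 by 1.80 ± 0.12 (adjusted p 1.4e-10). Neither call was seen within cluster 10, where the sign was the opposite for Irf1 (−0.26 ± 0.23, adjusted p 0.609) and for Irf8 (−0.53 ± 0.17, adjusted p 0.061). Il15 and Il12b were not found together more often than apart: in neonatal pools 41.8% and 34.5% of Il15+ mature DC-like cells had an Il12b UMI, against 42.4% and 37.9% of cells without Il15. In nonclassical monocyte-like cells Il15 had 14.0 and 16.1 CPM in neonatal pools and 8.37 and 5.49 CPM in adult pools, and missed the threshold (1.01 ± 0.42, adjusted p 0.073). Il15 also missed it in cDC1-like (0.19), cDC2-like (−0.32), classical monocyte-like (−0.23) and neutrophil-like cells (−0.41 on the log2 scale).

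Csf1 (chr3:107741048-107760469, − strand) had its highest level in basophil-like cells at both ages. They supplied 60.8% and 65.05% of all Csf1 UMIs in neonatal pools against 52.2% and 41.3% in adult pools. Neonatal basophil-like cells held 382 and 497 Csf1 UMIs (1507 and 1454 CPM), against 151 and 109 UMIs (1370 and 1203 CPM) in adult ones. Both neonatal pools lay above both adult pools by a small amount, and the difference of 0.15 ± 0.12 missed the threshold (adjusted p 0.581). It was more evenly spread than Il6 in the same cells: the 10% of basophil-like cells with the most held between 29.6% and 32.0% of the Csf1 UMIs in every pool. Thinned to 1500 UMIs, 76.5% and 79.3% of neonatal and 70.6% and 88.0% of adult basophil-like cells had a Csf1 UMI. Neutrophil-like cells came second, with 186 and 138 CPM in neonatal pools and 125 and 163 CPM in adult pools, and did not pass the test (0.20 ± 0.15, adjusted p 0.336). That class level joins unlike clusters. In neonatal pools cluster 6 had 300 and 218 CPM of Csf1 and cluster 13 had 13.1 and 10.5 CPM. Cluster 3 had 125 and 163 CPM in adult pools, and age and cluster cannot be told apart there. Neutrophil-like cells supplied 22.6% and 20.4% of all Csf1 UMIs in neonatal pools against 42.9% and 53.8% in adult pools, more than basophil-like cells in adult pool 2.

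Csf1 in mature DC-like cells differed between ages. Neonatal mature DC-like cells held 68 and 75 Csf1 UMIs (30.9 and 32.9 CPM), against 1 and 2 UMIs (1.40 and 2.95 CPM) in adult ones. The ratio was 14.8, with an exact 95% counting interval of 4.97 to 72.7, and edgeR's quasi-likelihood test called it (adjusted p 3.6e-06). The neonatal UMIs came from 107 cells, of which 100 were in cluster 5, 63 had an Il12b UMI and 0 had an Mcpt8 or Gata2 UMI. With cells thinned to 1500 UMIs, 19 and 26 neonatal cells kept a Csf1 UMI, and 42.1% and 46.2% of them had an Il12b UMI. Among neonatal mature DC-like cells without Csf1 the shares were 42.3% and 36.9%. Cluster 5 held 9 cells in each adult pool and 0 adult Csf1 UMIs. In cluster 10, Csf1 had 1.92 and 13.3 CPM in neonatal pools and 1.53 and 3.17 CPM in adult pools, too few for a test. Csf1r, the receptor, was an mRNA of monocyte-like cells, and was higher in neonates in nonclassical (0.38 ± 0.06, adjusted p 2.8e-09) and classical ones (0.27 ± 0.07, adjusted p 7.7e-04), though within classical monocyte-like cluster 2 the difference was 0.05 ± 0.14 (adjusted p 0.939). Il34, the other ligand of that receptor, had 0 UMIs at both ages.

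**Figure D4:**
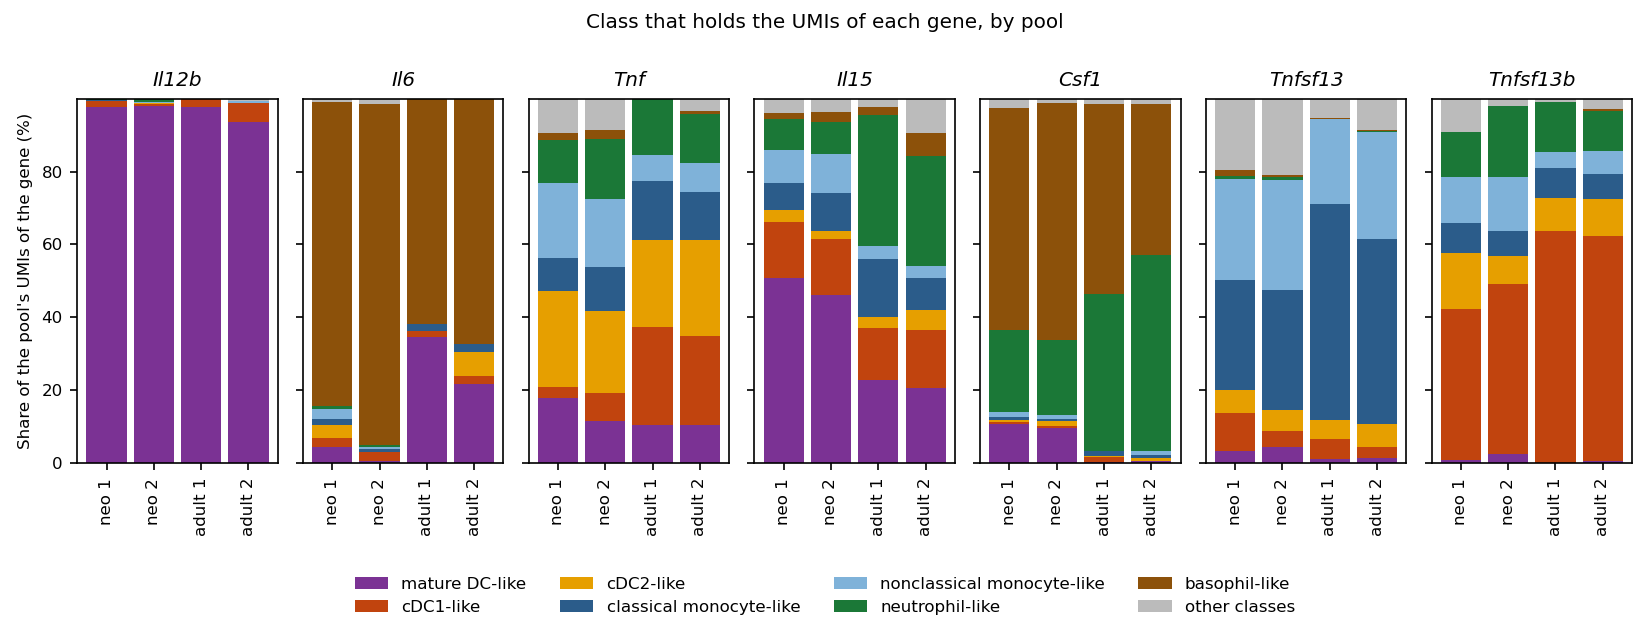
Share of each gene's UMIs in a pool that each class supplied, in percent, with neonatal pools left of adult pools. Mature DC-like cells supplied over 93% of Il12b in every pool, while the share of neutrophil-like cells in Il15 and Csf1 was higher in adult pools.

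Tnfsf13 (chr11:69682846-69685784, − strand), which encodes APRIL, was lower in neonates in every class in which it could be tested. Neonatal classical monocyte-like cells held 61 and 68 Tnfsf13 UMIs (23.9 and 28.2 CPM), against 208 and 170 UMIs (164 and 142 CPM) in adult ones. The difference was −2.75 ± 0.14 on the log2 scale (adjusted p 6.7e-41). Neonatal nonclassical monocyte-like cells held 56 and 62 UMIs (17.8 and 17.2 CPM), against 82 and 98 UMIs (98.0 and 108 CPM) in adult ones, a difference of −2.67 ± 0.18 (adjusted p 2.1e-46). In both monocyte classes every neonatal pool lay below every adult pool. With cells thinned to 1500 UMIs, 4.32% and 3.58% of neonatal against 19.9% and 20.8% of adult classical monocyte-like cells had a Tnfsf13 UMI. Classical monocyte-like cluster 2 held 24 cells in each adult pool, and had 24.3 and 28.0 CPM in neonatal pools against 190 and 129 CPM in adult pools. Within cluster 2 the difference was −2.70 ± 0.34 (adjusted p 6.3e-07, 2.68% of genes called). Of 11 early genes 0 were called there, where few genes of any kind were called, and their part in the Tnfsf13 result was not tested. The list of C1q macrophage genes summed to 2197 and 2549 CPM in neonatal and 4283 and 3236 CPM in adult classical monocyte-like cells, and the neutrophil list to 976 and 1154 CPM in neonatal and 212 and 213 CPM in adult ones. The alveolar macrophage list summed to 29.0 and 12.5 CPM in neonatal and 527 and 550 CPM in adult classical monocyte-like cells, with 2 and 6 of its 10 genes at 0 in neonatal pools and 7 and 7 in adult pools. In nonclassical monocyte-like cells the C1q macrophage list summed to 1418 and 1555 CPM in neonatal pools against 5297 and 6252 CPM in adult pools, with 1 or 2 of its 8 genes at 0 in a pool. Over all pools, 26 classical and 2 nonclassical monocyte-like cells had at least 3 UMIs of the C1q genes themselves. Chil3, a gene of the alveolar macrophage list, is also on the classical monocyte list. The part of these marker mRNAs in the Tnfsf13 results was not tested. Nonclassical monocyte-like cells were split by age into cluster 0 (17.97 and 17.4 CPM in neonatal pools, with 5 and 12 adult cells) and cluster 8 (98.4 and 108 CPM in adult pools, with 15 and 18 neonatal cells and 0 neonatal UMIs).

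DC and NK-like cells followed at lower levels. cDC2-like cells had 4.85 and 6.84 CPM in neonatal pools against 17.8 and 21.4 CPM in adult pools (−1.93 ± 0.39, adjusted p 1.5e-04). Some cDC2-like cells carried C1q mRNA of macrophages, and without the 116 cells with at least 3 C1q UMIs the difference was −2.81 ± 0.48 (adjusted p 6.2e-05). Mature DC markers summed to 2116 and 2645 CPM in neonatal and 737 and 1214 CPM in adult cDC2-like cells. Proliferation markers summed to 1186 and 889 CPM against 234 and 242 CPM, and cDC2 markers to 3493 and 3437 CPM against 4103 and 4333 CPM. The part of this make-up in the cDC2-like results, for Tnfsf13 and other genes, was not tested. cDC1-like cells had 4.02 and 1.81 CPM in neonatal pools against 7.90 and 5.70 CPM in adult pools (−1.29 ± 0.42, adjusted p 0.018), a call lost in 4 of 14 alternatives, among them without neonatal pool 2 (−0.84, adjusted p 0.244) and without adult pool 1 (−0.998, adjusted p 0.283). NK-like cells held 0 and 0 Tnfsf13 UMIs in neonatal pools against 17 and 27 UMIs in adult pools, which was at least 3.54-fold lower in neonates when 3 counts are set for the neonatal pools together (adjusted p 0.0091). The NK-like call was lost when either neonatal pool was left out (adjusted p 0.206 and 0.444). The class itself differed in make-up: it held 48 and 69 neonatal and 267 and 274 adult cells, and its 8 NK markers summed to 7742 and 8730 CPM in neonatal pools against 24073 and 23089 CPM in adult pools. T cell markers summed to 1358 and 996 CPM in neonatal and 336 and 252 CPM in adult NK-like cells, and innate lymphoid markers to 405 and 352 CPM in neonatal and 138 and 101 CPM in adult ones. In 2 of the alternative groupings of cells the class held only 8 and 11 neonatal cells. The part of this make-up in the Tnfsf13 result was not tested. Alveolar macrophage-like cells, neonatal only, had 64.2 and 88.2 CPM.

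The neighbouring gene Tnfsf12, which encodes TWEAK, was lower in neonates in 6 classes, by −0.98 in classical monocyte-like to −3.37 in mature DC-like cells on the log2 scale. The mature DC-like value (± 0.76) came from 1 and 3 neonatal UMIs against 7 and 6 adult UMIs. NK-like cells were among the 6 classes, and the part of their make-up was not tested. Within classical monocyte-like cluster 2 Tnfsf12 missed the threshold (−0.35 ± 0.60, adjusted p 0.888), as it did within cDC1-like cluster 9 (−1.27 ± 0.65, adjusted p 0.291). A read-through gene, Tnfsfm13, overlaps Tnfsf13 on the same strand in the annotation, so reads of the pair may not be split cleanly. The male and female cells of neonatal pool 2 allow the sexes to be set side by side in 1 pool. Nonclassical monocyte-like cells with a Y-linked UMI and no Xist had 6 Tnfsf13 UMIs in 78 cells (27.4 CPM), and those with Xist and no Y-linked UMI had 41 UMIs in 885 cells (16.7 CPM). These are sets of cells from 1 pool, not replicates of a sex. The part of sex in the Tnfsf13 result was not tested.

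Tnfsf13b (chr8:10006467-10039072, + strand), which encodes BAFF, was highest in cDC1-like cells among adult classes and in neutrophil-like cells among neonatal ones (33.6 ± 1.204 CPM). Neonatal cDC1-like cells held 82 and 94 Tnfsf13b UMIs (15.7 and 18.9 CPM), against 121 and 108 UMIs (50.3 and 61.6 CPM) in adult ones. Both neonatal pools lay below both adult pools, and the difference was −1.73 ± 0.15 (adjusted p 2.1e-11). Thinned to 1500 UMIs, 2.68% and 2.90% of neonatal and 6.77% and 9.91% of adult cDC1-like cells had a Tnfsf13b UMI. Cluster 9 had 0 and 24.1 CPM in neonatal pools against 55.7 and 70.7 CPM in adult pools (−2.47 ± 0.54, adjusted p 0.0070). Cluster 1 had 16.7 and 18.5 CPM in neonatal pools and 26.8 and 16.8 CPM in adult pools, overlapping, with a difference that missed the threshold (−0.43 ± 0.38, adjusted p 0.637, 6.09% of genes called). Male and female cDC1-like cells of neonatal pool 2, called by Y-linked UMIs and Xist as above, had 17.9 and 18.8 CPM. These too are cells of 1 pool, and the part of sex in the Tnfsf13b result was not tested.

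In classical monocyte-like cells Tnfsf13b was lower in neonates by −1.09 ± 0.40 (adjusted p 0.043), a call kept in only 3 of 15 alternatives and lost without any 1 of the 4 pools (adjusted p 0.076 to 0.319). It missed the threshold in cDC2-like (−0.88 ± 0.36, adjusted p 0.083), neutrophil-like (0.52 ± 0.29, adjusted p 0.168) and nonclassical monocyte-like cells (−0.53 ± 0.41, adjusted p 0.419). Of the receptors for APRIL and BAFF, Tnfrsf13b was higher in neonatal classical monocyte-like cells (0.67 ± 0.14, adjusted p 9.0e-05) and lower in cDC1-like (−0.31 ± 0.10, adjusted p 0.015) and mature DC-like cells (−1.43 ± 0.45, adjusted p 0.017). None of these passed within a cluster: Tnfrsf13b gave 0.70 ± 0.34 in classical monocyte-like cluster 2 (adjusted p 0.427), −0.42 ± 0.22 in cDC1-like cluster 9 (adjusted p 0.291), 0.71 ± 0.24 in cDC1-like cluster 1 (adjusted p 0.078) and −0.31 ± 0.49 in mature DC-like cluster 10 (adjusted p 0.823).

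The age effect was compared directly between DC classes, with pool as a block. For Tnf it was lower in cDC1-like than in cDC2-like cells by −2.40 ± 0.32 on the log2 scale (adjusted p 4.5e-12, where 8.56% of 9817 genes were called; −1.24, adjusted p 0.072 at a finer clustering) and lower than in mature DC-like cells by −2.36 ± 0.46 (adjusted p 8.2e-04, 17.9% called). Il6 and Csf1 also passed between cDC1-like and mature DC-like cells, both of them scarce in cDC1-like cells. Free RNA could supply at most 56.5% and 63.3% of Csf1 in neonatal cDC1-like cells, and 11.7% in those of adult pool 1. For Il6 in mature DC-like cells the limits were 5.66% and 34.1% in neonatal pools, and 0.176% and 0.322% in adult pools. The Il6 difference of 4.61 ± 1.49 (adjusted p 0.024) was 3.37 without neonatal pool 2 and 3.88 without adult pool 1 (adjusted p 0.317 and 0.196), and the Csf1 difference of −4.24 ± 1.36 (adjusted p 0.023) was −4.10 and 0.67 without these pools (adjusted p 0.053 and 0.854). Between cDC2-like and mature DC-like cells no member passed (15.6% of genes called).

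Genes that act with these cytokines were read from lists of fixed membership. Beside the counts in these lists, 12% of all tested genes were higher and 15% lower in neonatal cDC1-like cells. In neonatal mature DC-like cells 14.5% were higher and 15.6% lower. Of 15 receptor genes, 11 were tested in cDC1-like cells, of which 1 was higher and 4 lower in neonates, with a median log2 difference of −0.01 beside 0.00 over all genes. Il2rg, the common gamma chain of the IL15 receptor, was lower in neonatal cDC1-like (−2.42 ± 0.34, adjusted p 4.3e-07) and cDC2-like cells (−1.32 ± 0.15, adjusted p 1.5e-09), and in NK-like cells, the main responders to IL15, by −0.57 ± 0.17 (adjusted p 0.034). Within cDC1-like cluster 9 the Il2rg difference missed the threshold (−1.29 ± 0.65, adjusted p 0.270). Il12rb2, the signalling chain for IL12, had 64.0 and 51.5 CPM in neonatal and 95.3 and 79.3 CPM in adult NK-like cells, and missed the threshold (adjusted p 0.225). The NK-like class differed in make-up between ages, as given with Tnfsf13. The part of this make-up in its Il2rg and Il12rb2 values was not tested. Tnfrsf1a, the main TNF receptor, was lower in neonatal neutrophil-like (−0.83 ± 0.11, adjusted p 9.1e-09), classical and nonclassical monocyte-like cells, and missed the threshold within classical monocyte-like cluster 2 (−0.59 ± 0.22, adjusted p 0.209).

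Of 20 transcription factors that induce such cytokines, 18 were tested in cDC1-like cells (3 higher, 7 lower in neonates, median −0.13) and 19 in mature DC-like cells (3 higher, 7 lower, median −0.24). Bhlhe40, a repressor of Il10 in T cells, was lower in neonatal cDC1-like (−2.41 ± 0.12, adjusted p 1.5e-09) and mature DC-like cells (−1.40 ± 0.11, adjusted p 5.0e-10). The Bhlhe40 difference was smaller within clusters, at −0.85 ± 0.22 in cDC1-like cluster 9 (adjusted p 0.031), −0.52 ± 0.24 in cDC1-like cluster 1 (adjusted p 0.233) and −0.80 ± 0.13 in mature DC-like cluster 10 (adjusted p 1.8e-04). Nfkb1, a subunit of NF-kB, was lower in neonatal mature DC-like cells (−1.09 ± 0.12, adjusted p 9.1e-08), and so was Irf4 (−1.05 ± 0.23, adjusted p 0.0013). Within cluster 10 Nfkb1 was lower by −0.63 ± 0.15 (adjusted p 0.0084), while Irf4 missed the threshold (−0.32 ± 0.29, adjusted p 0.629). Atf3, also an early gene, was lower in the 6 DC, monocyte and neutrophil classes by −1.01 to −2.04 on the log2 scale. Within clusters Atf3 was lower in mature DC-like cluster 10 (−1.98 ± 0.22, adjusted p 9.5e-07) and cDC1-like cluster 1 (−1.62 ± 0.15, adjusted p 5.4e-11), and missed the threshold in cDC1-like cluster 9 (−0.43 ± 0.18, adjusted p 0.192) and classical monocyte-like cluster 2 (0.01 ± 0.22, adjusted p 0.997).

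Of 13 genes for shedding, secretion and mRNA decay, 12 were tested in cDC1-like cells, with 1 higher and 6 lower in neonates (median −0.38), and 12 in mature DC-like cells, with 2 higher and 3 lower (median 0.09). Zfp36, which destabilises Tnf and Il6 mRNA, was lower in neonates in 7 classes, by −0.36 in basophil-like to −1.12 in neutrophil-like cells. It was also lower within mature DC-like cluster 10 (−0.95 ± 0.11, adjusted p 2.9e-06) and cDC1-like clusters 1 and 9 (−0.90 and −0.38, adjusted p 6.3e-10 and 0.0087), but not called in classical monocyte-like cluster 2 (−0.15 ± 0.12, adjusted p 0.713). Of 14 response genes, 12 were tested in cDC1-like cells, with 1 higher and 7 lower (median −0.61), among them Nfkbia, an NF-kB inhibitor induced by NF-kB itself (−1.53 ± 0.06, adjusted p 1.4e-20), and Traf1 (−1.79 ± 0.10, adjusted p 5.2e-17). Within clusters Nfkbia was not called, at 0.01 ± 0.22 in cluster 9 (adjusted p 0.982) and −0.84 ± 0.56 in cluster 1 (adjusted p 0.627). Traf1 was lower in cluster 1 (−1.13 ± 0.24, adjusted p 9.6e-04) but not called in cluster 9 (0.21 ± 0.18, adjusted p 0.579). In neutrophil-like cells 10 response genes were tested, with 2 higher and 6 lower, where 16.3% of all genes were higher and 15.8% lower. Age and cluster cannot be told apart in that class, for these genes as for Tnfrsf1a above and Ltb below. Of 21 other polarising and growth cytokines, 2 to 5 were tested per class: Ltb was higher in neonatal NK-like cells (2.29 ± 0.18, adjusted p 6.4e-08) and lower in neonatal neutrophil-like cells (−0.82 ± 0.11, adjusted p 1.6e-08), and Tgfb1 was lower in neonatal mature DC-like cells (−1.30 ± 0.21, adjusted p 4.5e-05). Within cluster 10 Tgfb1 missed the threshold (−0.61 ± 0.27, adjusted p 0.214). Ltb, which T and innate lymphoid cells make as well, had 412 and 464 CPM in neonatal against 102 and 76.7 CPM in adult NK-like cells. The neonatal NK-like cells also had the higher T cell and innate lymphoid marker sums and the lower NK marker sum given with Tnfsf13, and the part of these in the Ltb result was not tested.

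The pattern of each gene over 9 classes in 4 pools (36 points that share libraries and depth) was set beside that of 9914 other genes, as a description. The most alike by Pearson's r on log2(CPM + 1) was Mab21l3 for Il12b (0.93), Slc6a4 for Il6 (0.94), Myo1d for Csf1 (0.93) and Rasgrp4 for Tnfsf13b (0.88). It was Actg1 for Il15 (0.87), Atp6ap2 for Tnf (0.86) and Cmpk1 for Tnfsf13 (0.82), and none was sought for Il10.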

How the data were processed

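The deposited values were raw UMI counts without normalization, per the file headers, in 1 matrix of 14710 barcodes, 32285 genes and 2 hashtag features. They came from a droplet 3′ kit, and the submitters' processing notes name Cell Ranger 6.1.2, Seurat 4.2.0 and mm10. The barcode suffix gives the pool, and 0 columns were left unused. Gene positions are from GENCODE M21 (GRCm38), counted from 1, and promoters from RefSeq.

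A barcode was kept if it had 500 or more genes, 1000 or more UMIs, no more than 10% mitochondrial UMIs and no more than 20% of the other hashtag. Predicted doublets (105 and 85 in neonatal, 20 and 14 in adult pools) were removed. Leiden clustering (scanpy 1.11.5, leidenalg 0.10.2, resolution 1, 30 principal components, 15 neighbours, 2962 variable genes without the 8 members) gave 22 clusters, named from marker lists, with 1 unnamed cluster of 38 cells. UMIs were summed per pool and class. After filterByExpr and TMM scaling, the quasi-likelihood test of edgeR 4.0.16 (robust, R 4.3.3) compared the ages without a block, with Benjamini-Hochberg adjustment over all genes of a class and 0.05 as the threshold. Where an age had 1 to 3 UMIs of a member, the ratio with an exact 95% counting interval is given, and for 0 UMIs a bound from 3 counts over the age. Intervals, bounds and limits cover counting error only. To compare shares of cells, each cell was thinned to 1500 UMIs, which left out 716 neonatal and 449 adult cells as too shallow. The level that free RNA could supply was limited by the neutrophil mRNA seen in other classes.

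The labels say that the samples of an age were prepared independently. Neonatal and adult pools share numbers only: deviations of same-numbered pools correlated between -0.12 and 0.05 in the 9 classes. Named were the 8 members, the 3 genes most alike to each and listed partner genes by smallest p, of which a part is printed. The members and lists were chosen with earlier results of these data known, and the 11 early genes after their values were seen. Alternatives were DESeq2 1.42.0, its size factors, no low-count filter, the replicate block, each pool left out, doublets kept, a stricter cell filter, resolution 2, members among the clustering genes, thinned cells, and, added after seeing the data, single clusters, the crossed block, and the C1q cells left out. The tests were tested on simulated data.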

Additional observations from a re-analysis of the deposited data

Results flagged for a closer look

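Age effects that differed between DC classes by a test of the difference itself (edgeR's quasi-likelihood test of the interaction with pool as a block, Benjamini-Hochberg adjusted over all genes) drew attention in 4 cases. Tnf differed by -2.40 ± 0.32 on the log2 scale between cDC1-like and cDC2-like cells (adjusted p 4.5e-12), and by -1.24 at Leiden resolution 2, where it missed the threshold (adjusted p 0.072). Tnf differed by -2.36 ± 0.46 between cDC1-like and mature DC-like cells (adjusted p 8.2e-04). Csf1 differed by -4.24 ± 1.36 between cDC1-like and mature DC-like cells (adjusted p 0.023). Without neonatal pool 2 the Csf1 difference was -4.10 (adjusted p 0.053), and without adult pool 1 it was 0.67 (adjusted p 0.854). Il6 differed by 4.61 ± 1.49 between cDC1-like and mature DC-like cells (adjusted p 0.024). Without neonatal pool 2 the Il6 difference was 3.37 (adjusted p 0.317), and without adult pool 1 it was 3.88 (adjusted p 0.196). The free RNA limits given above apply to these Csf1 and Il6 values. No group had 4 or more pools, so single pools were not examined as outliers.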

How the results depend on the processing

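For the 33 results on a member in a class or between classes, 452 alternative values were computed, of which 412 kept direction and side of the threshold, 27 lost the call, 8 gained one and 5 reversed. The reversed values were Tnf in cDC1-like cluster 9 (0.44), Tnf in classical monocyte-like cluster 2 (1.07), Il15 (-0.17) and Il12b (-0.54) in mature DC-like cluster 10, and the Csf1 difference between cDC1-like and mature DC-like cells without adult pool 1 (0.67, in a range of -5.72 to 0.67 with 1 pool left out). The clusters hold fewer cells and fewer tested genes than the classes, and the ages filled them unequally. The cause of these reversals, and of the calls lost or gained, was not tested. Il12b in mature DC-like cells gained a call with no low-count filter (0.44, adjusted p 4.1e-04) and without neonatal pool 2 (0.61, adjusted p 5.7e-04). In cDC1-like cells Il12b gained one, lower in neonates, with doublets kept (-2.53, adjusted p 1.7e-04) and with the members among the clustering genes (-2.58, adjusted p 9.1e-05).

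The replicate block, with pool numbers as pairs, gave Il12b a call in mature DC-like cells (0.34, adjusted p 0.010) and moved the T cell-like count of genes called to 203, against 95 without the block. It changed no other member's call except Tnfsf13b in classical monocyte-like cells, which was lost. In neutrophil-like cells same-numbered pools correlated at -0.12. With the numbers crossed, NK-like cells had 441 genes called, against 668.

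Counts of genes called fell with DESeq2 to 242 in NK-like (668 with edgeR), 24 in T cell-like (95), 64 in basophil-like (181), 1246 in cDC1-like (2664), 523 in cDC2-like (1489), 580 in classical monocyte-like (1561), 1016 in mature DC-like (2300), 823 in neutrophil-like (1858) and 691 in nonclassical monocyte-like cells (1733). With 1 pool left out, genes called ranged from 3 to 494 in NK-like, 41 to 135 in T cell-like, 96 to 193 in basophil-like, 2031 to 2207 in cDC1-like, 818 to 1357 in cDC2-like, 1083 to 1213 in classical monocyte-like, 1391 to 1901 in mature DC-like, 1302 to 1545 in neutrophil-like and 999 to 1208 in nonclassical monocyte-like cells. For differences between classes they ranged from 475 to 743 (cDC1-like minus cDC2-like, 840 in full), 1016 to 1372 (cDC1-like minus mature DC-like, 1759) and 572 to 1115 (cDC2-like minus mature DC-like, 1450). Members called then ranged from 0 to 0 in NK-like, T cell-like and basophil-like, 2 to 4 in cDC1-like, 1 to 1 in cDC2-like, 1 to 2 in classical monocyte-like, 3 to 4 in mature DC-like, 1 to 1 in neutrophil-like and nonclassical monocyte-like cells, and from 1 to 2, 1 to 4 and 0 to 0 in the differences between classes. Genes called were 560 and 609 in cDC1-like clusters 1 and 9 (0 and 1 members), 216 in cluster 2 (1 member) and 348 in cluster 10. In T cell-like cells 146 were called with no low-count filter, 61 with doublets kept and 54 with the stricter cell filter. At resolution 2 the cDC1-like minus cDC2-like difference had 406 genes and 0 members called, the cDC2-like minus mature DC-like difference 892 genes, and cDC2-like cells 0 members. DESeq2 called 1 member in classical monocyte-like and 0 in neutrophil-like cells. Members called were 2 in neutrophil-like cells with no low-count filter, 2 in nonclassical monocyte-like cells with thinned cells (Il15, 1.22, adjusted p 0.038) and 2 in cDC2-like cells with doublets kept (Tnfsf13b, -0.998, adjusted p 0.040).

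Mean Tnfsf13 in neonatal classical monocyte-like cells was 22.4 CPM with doublets kept and 20.3 CPM at resolution 2 (26.1 in full), and Tnfsf13b in adult cDC1-like cells was 46.4 CPM at resolution 2 (55.9). Thinning to 1000 or 2500 UMIs in place of 1500 moved the neonatal minus adult share of cells, in percentage points, to 3.03 and 8.43 for Il15 in mature DC-like cells (5.57), -11.0 and -23.0 for Tnfsf13 in classical monocyte-like cells (-16.4) and -1.36 and -8.14 for Tnfsf13b in cDC1-like cells (-5.56), and, at 2500, to -3.23 for Tnf in cDC2-like cells (0.57). With doublets kept or members among the clustering genes the NK-like class held under 20 cells in a neonatal pool (8 and 11 with doublets kept) and was not tested. Depth limits Il10 (5 UMIs) and levels under 5 CPM, and DESeq2 gave no adjusted p for Tnfsf13 in NK-like cells.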

Other observations

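Classes too small to be tested between ages also held some of these mRNAs. Alveolar macrophage-like cells, 54 and 41 in neonatal pools and 0 in both adult pools, had 23 and 26 Tnfsf13 UMIs and 32 and 28 Tnf UMIs. The unnamed cluster of 38 cells had 15 and 13 Tnfsf13 UMIs (158 and 117 CPM) in neonatal pools. Innate lymphoid-like cells had 7 and 5 Csf1 UMIs in neonatal pools and 3 and 1 in adult pools. Proliferating cDC1-like cells, in the cell cycle when captured, had 14.7 and 14.4 CPM of Il15 in neonatal pools, close to the 14.5 and 16.3 CPM of other neonatal cDC1-like cells, with 1 UMI in all adult ones.

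Csf1 and Il6 were both seen in basophil-like cells. Thinned to 1500 UMIs, Csf1 was seen in 81.8% and 84.1% of neonatal basophil-like cells with an Il6 UMI, against 74.6% and 76.1% of those without one. In adult pools, with 10 Il6+ cells each, the shares were 60% and 100% against 75% and 80%, so the pools did not go one way. Neonatal mature DC-like cells with a Y-linked UMI and no Xist had 1263 CPM of Il12b in pool 2 (33 cells), and those with Xist and no Y-linked UMI had 671 CPM (396 cells). Il15 had 135 and 108 CPM and Csf1 51.3 and 33.4 CPM in the same 2 sets of cells.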
